A study of Rattus norvegicus with 18 samples.

Results

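The genes described here encode the subunits of the oxidative phosphorylation complexes and a small number of their assembly factors and isoforms. They were taken as every gene whose symbol, on a probe set annotated to a single gene, began with Nduf, Uqcr, Sdha, Sdhb, Sdhc, Sdhd, Cox4, Cox5, Cox6, Cox7, Cox8 or Atp5, with the muscle isoform Cox6a2 left out. The rule took in 100 probe sets of 89 genes out of 14217 genes with a single symbol on the array. Where a gene had more than 1 probe set, which applied to 10 genes, the probe set with the highest mean log2 signal over the 18 samples was used. By complex, 40 genes belonged to complex I (34 subunits and 6 assembly factors), 8 to complex II (4 subunits and 4 assembly factors), 7 to complex III, 18 to complex IV and 16 to complex V. The complex IV genes comprised 11 subunits, 5 tissue isoforms, the pseudogene Cox6c-ps1 and the supercomplex factor Cox7a2l, and those of complex V comprised 15 subunits and the inhibitor Atp5if1. No test filtered any member out: all 89 had a value in every sample. For 84 of them the mean log2 signal was above 7, and for 70 it was above 10.

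The respiratory chain sits in the inner mitochondrial membrane. Complex I (NADH dehydrogenase) and complex II (succinate dehydrogenase, which is also an enzyme of the citric acid cycle) pass electrons to ubiquinone. Complex III passes them to cytochrome c and complex IV to oxygen, and complex V makes ATP from the proton gradient that complexes I, III and IV build up. Except in complex II, the nuclear genes measured here work together with subunits made from mitochondrial DNA, and assembly factors insert the cofactors and join the parts without staying in the finished enzyme.

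The series measured messenger RNA on Affymetrix rat expression arrays in tongue tissue of male Sprague Dawley rats. Dysplasia and squamous cell carcinoma (SCC) arose in rats given 0.002% 4NQO (4-nitroquinoline-1-oxide, a DNA-damaging carcinogen) to drink, with lesions collected between weeks 14 and 22, and the normal control animals drank distilled water. At each of the 3 stages the epithelial layer was lifted off with dispase, and fibroblasts were taken from the connective tissue beneath by collagenase digestion and brief adherence to plastic. This gave 6 groups (normal, dysplasia and SCC epithelia, and normal, dysplasia and SCC fibroblasts) of 3 samples each. Per the methods, each sample pooled tissue of 3 rats, so a p-value measures the spread between these pools, part of which may be technical. Values are log2 of the deposited signal, a difference of 1 being a 2-fold change, and a gene was called when its limma adjusted p-value over all 31042 probe sets was below 0.05. In whole tissue layers, fewer cells of a type and less RNA per cell cannot be told apart.

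The labelled cell types were set against marker genes. The 13 fibroblast markers averaged 12.75 in normal fibroblasts and 6.58 in normal epithelia, and all 13 were called lower in the epithelia. The 13 epithelial markers averaged 13.09 in normal epithelia but were also high in the fibroblast samples, at 12.04, 12.63 and 12.54 from normal through dysplasia to SCC, so the fibroblast samples held epithelial RNA. Macrophage markers averaged 10.53, 9.38 and 10.63 in normal, dysplasia and SCC fibroblasts, against 5.96 in normal epithelia. Endothelial markers averaged 11.04, 10.74 and 10.89 there, against 5.76, so the fibroblast samples also held RNA of these cells. Fibroblast markers were higher in SCC epithelia, where the samples ranged from 7.40 to 11.35, than in normal epithelia, where they ranged from 5.89 to 7.89. In each fibroblast group the third sample stood apart from the others, with the lowest epithelial and the highest fibroblast marker mean. Its epithelial marker mean was 10.96 against 12.57 and 12.61 in normal and 12.27 against 12.79 and 12.82 in dysplasia fibroblasts. In SCC fibroblasts it was 12.04 against 12.84 and 12.75. The macrophage marker mean of the third sample was the lowest in normal fibroblasts (9.02). In dysplasia (10.53) and SCC fibroblasts (11.64) it was the highest. Counts in the fibroblast comparisons with normal are therefore also given without the third samples. Those counts rest on the fibroblast samples with the higher epithelial marker means. With arrays aligned on the hybridization spike-in controls in place of the deposited scaling, the median change of all probe sets became 0.11, -0.11 and 0.01 in epithelia and -0.16, 0.67 and 0.51 in fibroblasts (dysplasia against normal, SCC against dysplasia and SCC against normal), so every change below is relative to the deposited scaling.

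Promoter sequences are shown for 6 members as examples. Of these, 4 were among the members that rose at both stages in the epithelia (Sdhb, Sdhaf3, Ndufaf4, Ndufaf8). Ndufaf1, Ndufs3 and Ndufa12 also rose at both stages and are not shown. The others shown are the pair Cox8a and Cox8b, the widely used and the muscle form of the same complex IV subunit. RefSeq (assembly GRCr8) held a promoter entry for 81 of the 89 members, running from 250 bases before to 50 bases after the gene start. Each is written 5′ to 3′ in the direction of the gene, and capitals mark matches, on either strand, to the motifs searched: GCGCATGCG (NRF1), CCGGAAG (ETS factors including GABPA), AAGATGG (YY1) and GGGGCGGGG (SP1). These lie at chr5:158547684-158547983 (+ strand) for Sdhb, chr4:36066713-36067012 (+) for Sdhaf3, chr5:43401545-43401844 (+) for Ndufaf4, chr10:105879658-105879957 (+) for Ndufaf8, chr1:213833574-213833873 (-) for Cox8a and chr1:205408224-205408523 (-) for Cox8b.
Sdhb: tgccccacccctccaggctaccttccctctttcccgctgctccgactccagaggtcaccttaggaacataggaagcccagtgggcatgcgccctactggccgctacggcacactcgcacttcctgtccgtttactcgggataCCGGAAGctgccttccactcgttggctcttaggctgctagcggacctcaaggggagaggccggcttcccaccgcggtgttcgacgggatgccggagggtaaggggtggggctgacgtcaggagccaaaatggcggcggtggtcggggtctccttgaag
Sdhaf3: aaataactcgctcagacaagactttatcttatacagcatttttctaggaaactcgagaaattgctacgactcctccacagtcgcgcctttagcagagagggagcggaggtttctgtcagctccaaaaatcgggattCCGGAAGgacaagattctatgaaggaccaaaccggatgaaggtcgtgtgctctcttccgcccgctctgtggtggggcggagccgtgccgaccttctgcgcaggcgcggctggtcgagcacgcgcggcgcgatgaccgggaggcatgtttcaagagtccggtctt
Ndufaf4: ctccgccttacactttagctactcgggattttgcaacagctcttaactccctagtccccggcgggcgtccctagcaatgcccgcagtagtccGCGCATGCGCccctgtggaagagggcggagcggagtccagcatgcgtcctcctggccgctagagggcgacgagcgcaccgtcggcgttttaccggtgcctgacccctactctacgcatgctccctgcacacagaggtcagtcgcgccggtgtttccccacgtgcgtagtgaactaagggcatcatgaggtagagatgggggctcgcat
Ndufaf8: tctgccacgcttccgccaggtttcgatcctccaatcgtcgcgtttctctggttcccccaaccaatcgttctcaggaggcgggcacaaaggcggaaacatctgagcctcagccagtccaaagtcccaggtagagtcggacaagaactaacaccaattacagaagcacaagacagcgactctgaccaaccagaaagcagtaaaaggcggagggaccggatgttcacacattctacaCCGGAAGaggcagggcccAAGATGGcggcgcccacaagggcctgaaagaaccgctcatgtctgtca
Cox8a: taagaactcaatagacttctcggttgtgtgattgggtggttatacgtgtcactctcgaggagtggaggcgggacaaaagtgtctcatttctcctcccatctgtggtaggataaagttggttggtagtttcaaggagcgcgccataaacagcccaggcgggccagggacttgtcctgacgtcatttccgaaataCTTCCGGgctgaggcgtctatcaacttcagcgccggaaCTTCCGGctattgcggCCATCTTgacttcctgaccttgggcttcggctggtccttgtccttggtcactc
Cox8b: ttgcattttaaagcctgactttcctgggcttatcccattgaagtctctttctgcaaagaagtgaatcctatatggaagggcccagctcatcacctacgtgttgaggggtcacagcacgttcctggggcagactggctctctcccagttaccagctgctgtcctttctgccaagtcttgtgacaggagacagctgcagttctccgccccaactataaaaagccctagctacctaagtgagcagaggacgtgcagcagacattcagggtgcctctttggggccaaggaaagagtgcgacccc
Sdhb, Sdhaf3 and Ndufaf8 each held the ETS letters, Ndufaf8 also the YY1 letters just after the gene start, and Ndufaf4 held the NRF1 letters, which read on both strands at overlapping positions. Cox8a held the ETS letters at 2 places and the YY1 letters at 1, and Cox8b held none of the 4 motifs.

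Of the 81 member promoters, 43 held at least 1 of the 4 motifs. The ETS letters were in 25 of them (30.9%), against 8.75% of all 33469 rat promoters of the same length. The YY1 letters were in 20 (24.7%, against 7.01% of all), the NRF1 letters in 7 (8.64%, against 1.52%) and the SP1 letters in 4 (4.94%, against 9.73%). A match is a description of the letters in this window, not a bound site or a cause of any change.

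Each sample's mean over all 89 members gave a first view of the stages. In the epithelia the group mean of this log2 signal was 10.95 ± 0.04 in normal, 11.10 ± 0.04 in dysplasia and 11.12 ± 0.05 in SCC (SD, n = 3). In the fibroblasts it was 10.82 ± 0.05 in normal, 11.09 ± 0.12 in dysplasia and 11.05 ± 0.07 in SCC. The wide spread in dysplasia fibroblasts came from the third sample, at 10.94 against 11.16 in both others.

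For complex I the mean went from 10.89 ± 0.05 in normal to 11.08 ± 0.04 in dysplasia and 11.13 ± 0.06 in SCC epithelia, and from 10.65 ± 0.07 to 10.99 ± 0.15 and 10.99 ± 0.10 in fibroblasts. Complex II ran lower in the epithelia than in the fibroblasts at every stage, at 9.53 ± 0.24, 9.95 ± 0.11 and 10.04 ± 0.06 in epithelia against 10.05 ± 0.02, 10.32 ± 0.10 and 10.40 ± 0.11 in fibroblasts. Complex III ran the other way, with 12.29 ± 0.02, 12.40 ± 0.03 and 12.37 ± 0.01 in epithelia against 12.03 ± 0.07, 12.17 ± 0.12 and 12.20 ± 0.07 in fibroblasts. For complex IV the 6 group means lay between 9.90 and 10.12, and for complex V they were 12.29, 12.39 and 12.41 in the epithelia and 12.12, 12.33 and 12.26 in the fibroblasts. Levels are compared here between groups within a complex and not between complexes, because probe sets differ in brightness. The order of the layers is that of the deposited scaling. The spike-in controls were brighter on the fibroblast than on the epithelial arrays at each stage. Alignment on them reverses the order of the complex II group means in normal and dysplasia tissue, and leaves the layers close in SCC.

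**Figure D1:**
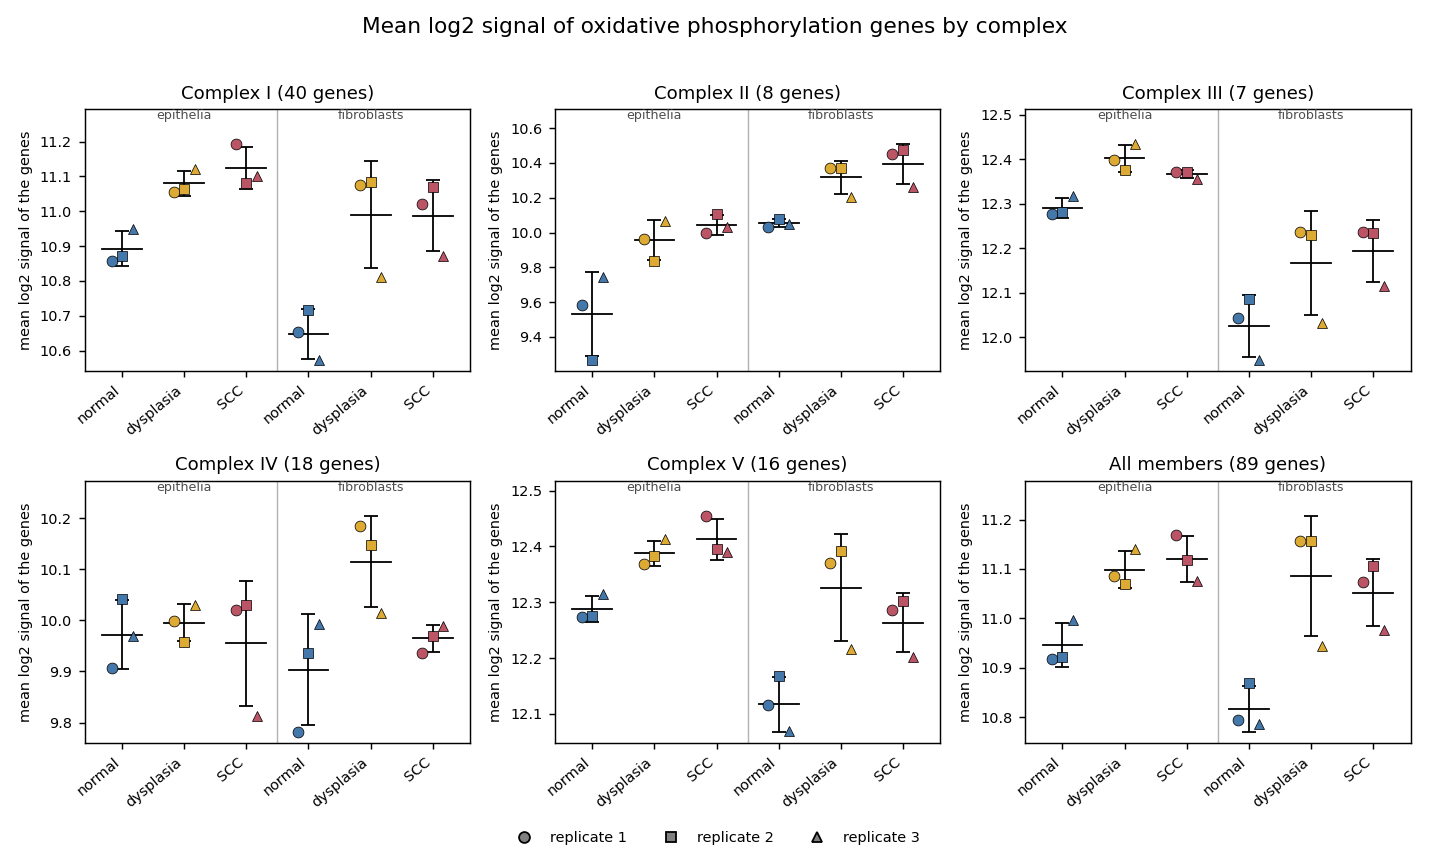
Mean log2 signal of the members of each complex, and of all 89 members, in each of the 18 samples (vertical axis) by stage and cell type (horizontal axis), with points for samples and bars for the group mean ± SD (n = 3). In the deposited scaling, shown here, complex II is the panel in which fibroblasts lie above epithelia at every stage. The third dysplasia fibroblast sample lies below the others for complex I, at 10.81 against 11.08 in both.

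In the epithelia, dysplasia was compared with normal to ask which respiratory chain genes differed at the dysplasia stage. The 8 members that rose were the complex I subunits Ndufa12 and Ndufs3, the complex I assembly factors Ndufaf1, Ndufaf4 and Ndufaf8, the complex II subunit Sdhb, its assembly factor Sdhaf3, and the catalytic complex V subunit Atp5f1b. None fell. These 8 of 89 are 8.99% of the members, against 14.5% of all probe sets called in either direction (7% higher and 7.54% lower), so the share of members called was not above the background. The direction was one-sided: 71 of the 89 members lay above 0, with a median change of 0.11 against -0.06 over all probe sets. Among the 2720 genes with a mean log2 signal above 10, as 70 of the members have, the median change was 0.05 and 16.6% were called. For 48 members every dysplasia sample lay above every normal sample, and for 7 below, where 19% and 21.5% of all probe sets did so.

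By complex, the median change from normal to dysplasia epithelia was 0.13 for complex I (5 of 40 rose), 0.31 for complex II (2 of 8 rose), 0.11 for complex III (0 of 7), 0.05 for complex IV (0 of 18) and 0.11 for complex V (1 of 16 rose). Assembly factors had the larger median change: 4 of 10 rose with a median of 0.45, against 4 of 79 and a median of 0.11 for all other members. No test was made of this difference between the 2 sets.

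In SCC against normal epithelia, 18 members rose and 2 fell, with a median of 0.16 against -0.09 over all probe sets. The 20 called are 22.5% of the members, fewer than the 29.9% of all probe sets called in this comparison. The 18 of 89 that rose stand against 12.6% of probe sets called higher, and the 2 of 89 that fell against 17.3% called lower. Among the bright genes the median was 0.05 and 36.7% were called. Complex I held 12 of the 18 (median 0.20), complex II held 3 (median 0.18), complex III 1 (median 0.06) and complex V 2 (median 0.13), and complex IV held none (median 0.05). The 2 that fell were Cox7a1, a muscle-type complex IV isoform, and Atp5f1d, the delta subunit of the ATP synthase stalk. Every SCC sample lay above every normal sample for 40 members and below for 6, where 18.4% and 29.1% of all probe sets did so.

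SCC and dysplasia epithelia were not separated by this test for any member. The count was 0 in limma, against a background of 0.0258% of probe sets called (0.0129% higher and 0.0129% lower). It was 3 at an unadjusted limma p below 0.05. In the methods' t-test, here with a Benjamini-Hochberg adjustment that the methods do not name, it was 0. The median member change was 0.05. Every SCC sample lay above every dysplasia sample for 14 members and below for 4, where 7.18% and 11.1% of all probe sets did so. Both comparisons with normal use the same 3 normal samples, so their values are given side by side and their likeness is not read as a result.

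Among the complex I assembly factors, Ndufaf4, which acts early in building the enzyme, read 9.18, 8.81 and 9.12 in normal, 9.98, 9.63 and 9.76 in dysplasia and 10.06, 10.06 and 10.23 in SCC epithelia. All 6 lesion samples lay above all normal samples. The rise was 0.75 ± 0.14 (SE; 1.69-fold, limma adjusted p = 0.0104) in dysplasia and 1.08 ± 0.14 (2.11-fold, adjusted p = 0.000986) in SCC. Ndufaf1, a chaperone of the membrane arm, read 6.72, 6.89 and 6.90 in normal, 7.40, 7.64 and 7.79 in dysplasia and 7.46, 7.36 and 7.55 in SCC, again without overlap between lesion and normal samples. It rose by 0.77 ± 0.13 (1.71-fold, limma adjusted p = 0.00692) and by 0.62 ± 0.13 (1.53-fold, adjusted p = 0.00724). Ndufaf8, a partner in complex I assembly, read 10.08, 9.84 and 10.23 in normal, 10.75, 10.67 and 10.89 in dysplasia and 10.96, 10.69 and 10.91 in SCC. It too had no overlap, and rose by 0.72 ± 0.13 in dysplasia (limma adjusted p = 0.0114) and 0.80 ± 0.13 in SCC (adjusted p = 0.00314). Ndufaf3, Ndufaf5 and Ndufaf7 were not called, with changes between -0.18 and 0.24.

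Among the complex I subunits, the core subunit Ndufs3 read 9.92, 9.93 and 10.16 in normal, 10.43, 10.33 and 10.57 in dysplasia and 10.45, 10.42 and 10.48 in SCC epithelia. Lesion and normal samples did not overlap, and the rise was 0.44 ± 0.11 in dysplasia (limma adjusted p = 0.0336) and 0.45 ± 0.11 in SCC (adjusted p = 0.0168). The accessory subunit Ndufa2 read 10.45, 10.18 and 10.66 in normal, 10.79, 10.65 and 10.86 in dysplasia and 11.46, 11.05 and 10.97 in SCC. Normal and dysplasia overlapped, while SCC lay above both, with a rise of 0.73 ± 0.17 over normal (1.66-fold, limma adjusted p = 0.0122). The core subunits Ndufs1, Ndufs7, Ndufs8, Ndufv1 and Ndufv2 were not called at either stage, with changes between 0.01 and 0.36.

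In complex II the called members were 1 of 4 subunits, Sdhb, and 2 of 4 assembly factors, Sdhaf3 at both stages and Sdhaf1 in SCC alone. Sdhb, the iron-sulfur subunit that passes electrons from the flavin to ubiquinone, read 9.52, 9.12 and 9.70 in normal, 10.17, 10.09 and 10.43 in dysplasia and 10.17, 10.53 and 10.43 in SCC epithelia. Every lesion sample lay above every normal sample, and Sdhb rose by 0.78 ± 0.17 (1.72-fold, limma adjusted p = 0.0212) and 0.93 ± 0.17 (1.91-fold, adjusted p = 0.00501). Sdhaf3, which helps place the iron-sulfur clusters in Sdhb, read 6.74, 6.66 and 7.14 in normal, 7.74, 7.45 and 7.83 in dysplasia and 8.15, 7.74 and 8.05 in SCC. It rose by 0.83 ± 0.17 (1.77-fold, limma adjusted p = 0.0172) and 1.13 ± 0.17 (2.19-fold, adjusted p = 0.0021), with no overlap. Sdhaf1, which has a like role, read 8.33, 7.72 and 8.61 in normal, 9.21, 8.85 and 9.11 in dysplasia and 9.09, 9.96 and 9.33 in SCC. Its lesion samples did not overlap normal either, but only the SCC change was called, at 1.24 ± 0.27 (2.36-fold, limma adjusted p = 0.00973), while dysplasia gave 0.84 (adjusted p = 0.0701).

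The other 3 subunits of complex II changed less. The flavoprotein Sdha gave 0.22 and 0.16 in dysplasia and SCC epithelia, and the membrane anchors Sdhc and Sdhd gave 0.29 and 0.16, and 0.33 and 0.19, none of them called. The assembly factors Sdhaf2 and Sdhaf4 lay between 0.02 and 0.18.

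Sdhb and Sdhaf1 were both higher in fibroblasts than in epithelia, and fibroblast markers were higher in SCC than in normal epithelia (4 of 13 called higher, median 2.94). In dysplasia epithelia 0 of the 13 fibroblast markers were called, with a median change of 0.33. Their sample means were 7.86, 6.85 and 6.80 in dysplasia, against 5.97, 7.89 and 5.89 in normal epithelia. Macrophage markers averaged 5.96 in normal, 6.73 in dysplasia and 8.35 in SCC epithelia, with 2 and 7 of 10 called higher against normal. Neutrophil markers averaged 6.02, 7.07 and 8.06, with 2 of 6 called higher at each stage. Their median change was -0.10 in dysplasia and 0.76 in SCC, so the dysplasia average did not reflect most of the list. In normal tissue 2 of the 6 were called higher in epithelia than in fibroblasts and 4 lower. T cell markers averaged 6.35, 6.45 and 6.83, with 3 of 7 called higher and 1 lower in SCC. The log2 difference between 3′ and 5′ signals of the Gapdh control transcript, a sign of RNA quality, was between 0.017 and 0.076 in normal and between 0.137 and 0.241 in the lesion epithelia, without overlap. For the actin control transcript the same difference overlapped, at 1.65 to 1.87 in normal and 1.42 to 1.98 in lesion epithelia. The part of other cells and of RNA quality in the changes of the members was not tested.

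**Figure D2:**
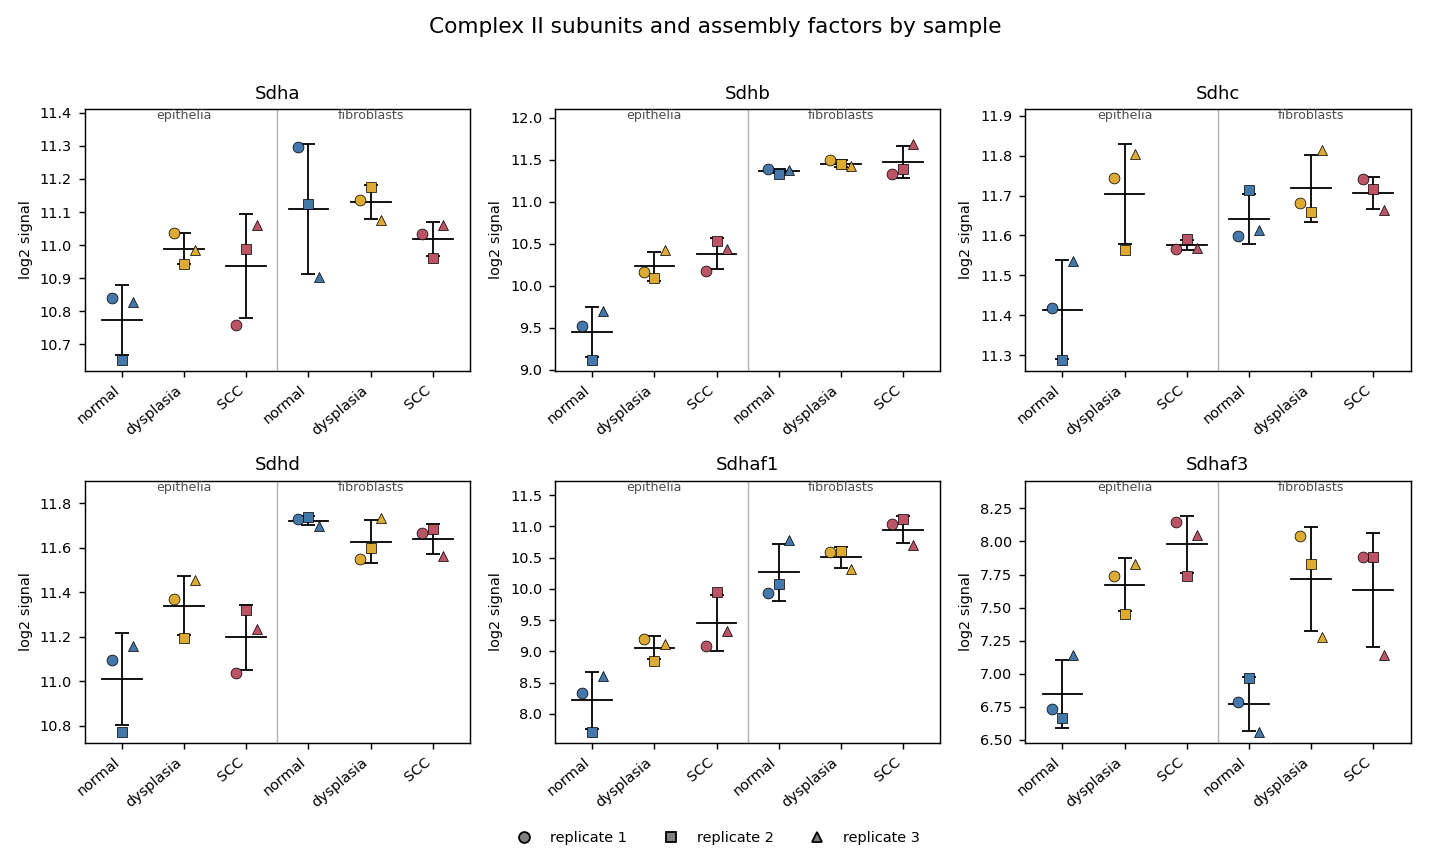
Log2 signal (vertical axis) of the complex II subunits Sdha, Sdhb, Sdhc and Sdhd and the assembly factors Sdhaf1 and Sdhaf3 in each sample by stage and cell type (horizontal axis), with bars for the group mean ± SD (n = 3). Sdhb rises in the epithelia from between 9.12 and 9.70 to at least 10.09 while it stays between 11.33 and 11.69 in the fibroblasts.

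In complexes III, IV and V the epithelial changes were fewer. Uqcrq, a small complex III subunit, read 12.21, 12.30 and 12.25 in normal, 12.45, 12.41 and 12.46 in dysplasia and 12.70, 12.50 and 12.49 in SCC, and rose by 0.31 ± 0.10 in SCC (1.24-fold, limma adjusted p = 0.0433). Of the catalytic and core subunits of complex III, Uqcrfs1, Uqcrc1 and Uqcrc2 changed by between -0.05 and 0.18 without a call. A second, dimmer probe set of Uqcrc2 gave 0.58 in dysplasia (limma adjusted p = 0.0486) and 0.15 in SCC (adjusted p = 0.528). Atp5f1b, the catalytic beta subunit of ATP synthase, read 12.41, 12.20 and 12.37 in normal, 12.75, 12.66 and 12.76 in dysplasia and 12.52, 12.68 and 12.73 in SCC. It rose by 0.40 ± 0.11 in dysplasia (1.32-fold, limma adjusted p = 0.0416), and its SCC change of 0.32 just missed the threshold (adjusted p = 0.054).

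Within ATP synthase, subunits moved in opposite directions. Atp5mk, a small membrane subunit, read 12.31, 12.28 and 12.35 in normal, 12.56, 12.49 and 12.61 in dysplasia and 12.95, 12.62 and 12.66 in SCC epithelia, and rose by 0.43 ± 0.11 in SCC (1.35-fold, limma adjusted p = 0.0221). Atp5f1d read 12.31, 12.49 and 12.36 in normal, 12.11, 12.18 and 12.18 in dysplasia and 11.90, 12.09 and 12.12 in SCC, and fell by 0.35 ± 0.11 (limma adjusted p = 0.0341). Both genes separated SCC from normal without overlap. The partner subunits Atp5f1a and Atp5f1c were not called, with changes between 0.03 and 0.22.

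Most single calls in the epithelia depended on the whole set of samples. Without each of the 9 samples in turn, 2 of the 8 dysplasia calls (Ndufaf1 and Ndufaf4) and 8 of the 20 SCC calls (Ndufa12, Ndufa2, Ndufaf1, Ndufaf4, Ndufaf8, Sdhaf1, Sdhaf3 and Sdhb) passed every time. Ndufaf1 and Cox7a1, with mean signals below 7, are among the dimmer members.

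**Figure D3:**
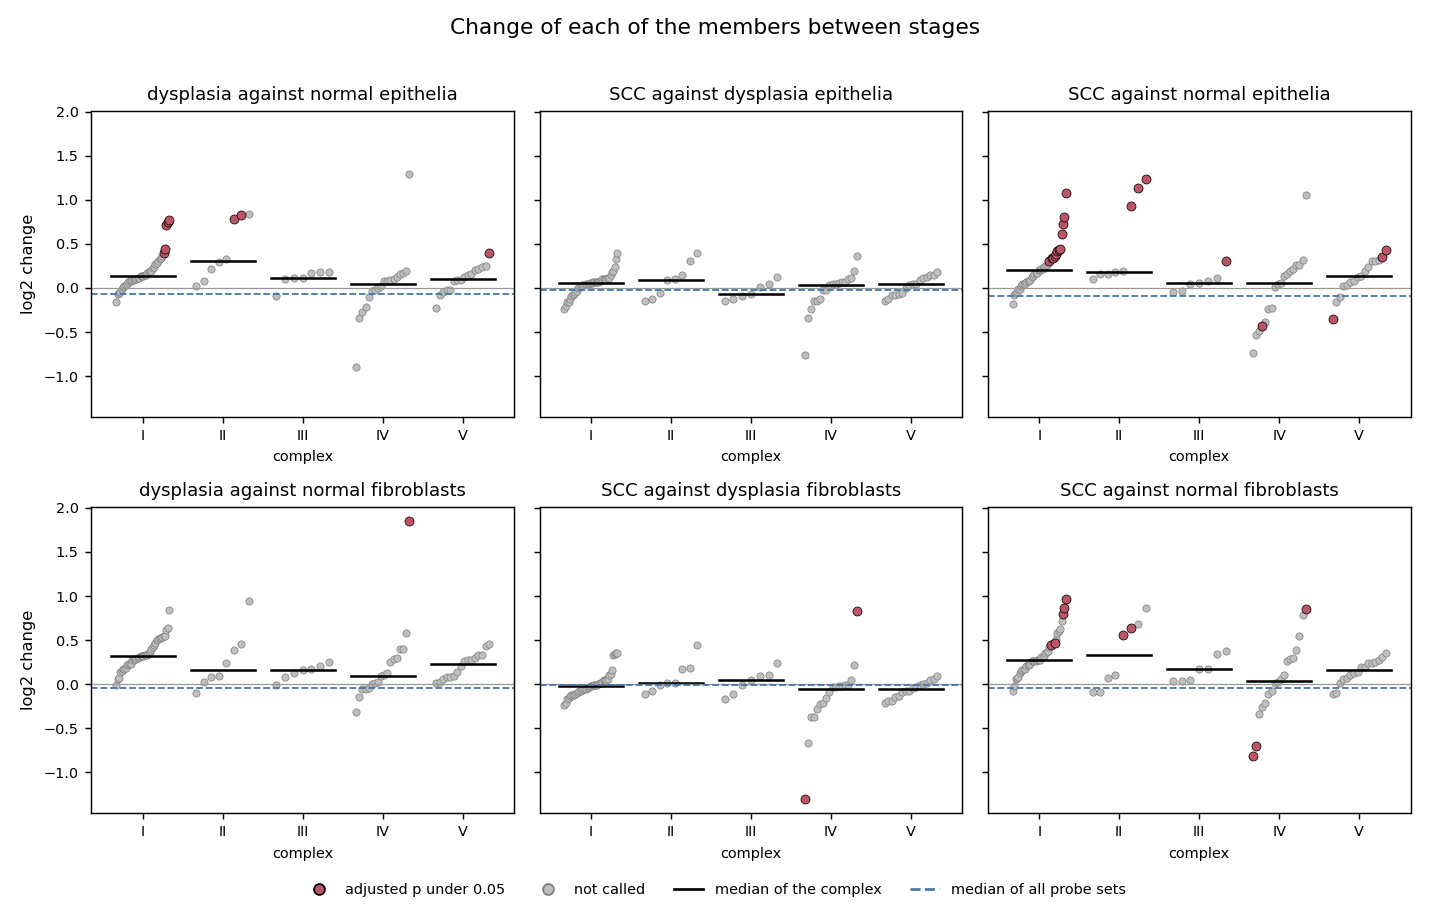
Log2 change of each of the 89 members (vertical axis) by complex (horizontal axis) in the 6 stage comparisons, with red points for members with a limma adjusted p below 0.05, black bars for the median of each complex and a blue dashed line for the median of all probe sets. Complex I medians lie above that line in the comparisons of lesions with normal, at 0.13 and 0.20 in epithelia and 0.32 and 0.27 in fibroblasts.

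In the fibroblasts, dysplasia against normal gave a uniform direction but almost no calls. Of the 89 members 81 lay above 0, with a median of 0.26 against -0.04 over all probe sets and 0.01 over bright genes. Only Cox8b was called, against a background of 0.171% of all probe sets (0.116% higher and 0.0548% lower), and 34 members had an unadjusted p below 0.05. For 47 members all dysplasia samples lay above all normal samples and for 0 below, where 10.2% and 13.3% of all probe sets did so. Medians by complex were 0.32 for complex I (39 of 40 above 0), 0.16 for complex II (7 of 8), 0.16 for complex III (6 of 7), 0.10 for complex IV (13 of 18) and 0.23 for complex V (16 of 16). Without the third sample of each fibroblast group 35 members were called higher and 1 lower, against a background of 26.5%, so both the members' count and the background rest on those samples.

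Ndufb7, a complex I subunit facing the intermembrane space, showed what the third sample did. It read 10.46, 10.53 and 10.31 in normal, 11.55, 11.57 and 10.70 in dysplasia and 11.20, 11.33 and 10.91 in SCC fibroblasts. The third dysplasia sample was nearly as low as normal, and the change of 0.84 was not called (limma adjusted p = 0.155). Cox5a, a core complex IV subunit, read 8.85, 8.83 and 8.60 in normal and 9.79, 9.77 and 8.45 in dysplasia, where the third sample lay below all normal samples and the change of 0.58 was not called (adjusted p = 0.384). Ndufs3 gave 9.70, 9.85 and 9.71 in normal, 10.38, 10.49 and 10.05 in dysplasia and 10.42, 10.56 and 10.01 in SCC, all lesion samples above all normal ones, with changes of 0.55 and 0.58 that were not called (adjusted p = 0.184 and 0.0593).

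In SCC against normal fibroblasts 8 members rose and 2 fell, which is 11.2% of the members against 15.2% of all probe sets (7.82% higher and 7.43% lower) and 15.9% of bright genes. The median was 0.24 against -0.05 over all probe sets, with 76 of 89 above 0. Every SCC sample lay above every normal sample for 51 members and below for 7, where 17.8% and 20.6% of all probe sets did so. The 8 that rose were the complex I subunits Ndufa11, Ndufb8 and Ndufs4, the assembly factors Ndufaf1, Ndufaf4, Sdhaf2 and Sdhaf4, and Ndufa4l2, a paralog of the complex IV subunit Ndufa4. Cox6b2, an isoform known from testis, and the pseudogene Cox6c-ps1 fell, and the probes of the latter may also detect the parent gene Cox6c. Medians were 0.27 for complex I, 0.33 for complex II, 0.17 for complex III, 0.04 for complex IV and 0.16 for complex V. Assembly factors again had the larger median change, with 4 of 10 called higher and a median of 0.60, against 4 higher and 2 lower of 79 and a median of 0.19 for the other members.

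Ndufb8, a complex I subunit whose protein is often used as a marker of the assembled enzyme, read 8.21, 8.24 and 8.25 in normal, 8.66, 8.71 and 8.66 in dysplasia and 8.97, 9.24 and 8.86 in SCC fibroblasts. The 3 groups did not overlap, and SCC was higher than normal by 0.79 ± 0.13 (1.73-fold, limma adjusted p = 0.00807). Ndufaf1 read 5.64, 5.75 and 5.50 in normal, 6.64, 6.37 and 5.71 in dysplasia and 6.86, 6.65 and 6.28 in SCC, and rose by 0.97 ± 0.24 in SCC (1.95-fold, limma adjusted p = 0.0325). The third dysplasia sample fell within the normal range.

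Ndufaf4 read 9.10, 9.38 and 9.31 in normal, 9.98, 10.08 and 9.30 in dysplasia and 10.31, 10.25 and 9.83 in SCC fibroblasts, and rose by 0.87 ± 0.22 in SCC (1.82-fold, limma adjusted p = 0.0351). SCC did not overlap normal, and the third dysplasia sample again did. Sdhaf2, which attaches the flavin to Sdha, read 8.81, 8.81 and 8.49 in normal and 9.39, 9.43 and 9.18 in SCC fibroblasts and rose by 0.64 ± 0.16 (1.55-fold, limma adjusted p = 0.0312). A second, dimmer probe set of Sdhaf2 gave -0.01 (adjusted p = 0.98), so the 2 probe sets of this gene disagreed. Likewise the dimmer probe set of Uqcrc2, a core protein of complex III, gave 1.48 (limma adjusted p = 0.00309) where the one used here gave 0.18.

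The ratio of signals from the 3′ to the 5′ end of the actin control transcript, a sign of RNA quality, was lower in SCC fibroblasts, at a log2 difference of between 1.14 and 1.26, than in normal fibroblasts, at between 1.51 and 2.02. For Gapdh this log2 difference was also lower, at 0.049 to 0.179 in SCC against 0.281 to 0.411 in normal fibroblasts. Neutrophil markers averaged 7.49 in normal, 8.58 in dysplasia and then 9.83 in SCC fibroblasts, with 6 of 6 called higher in SCC than in normal, as were 4 of 7 T cell markers, while 2 of 13 fibroblast markers were called lower. The part of these in the changes was not tested. Without the third samples, SCC against normal fibroblasts gave 26 members higher and 3 lower against a background of 42.3%. With each of the 9 fibroblast samples left out in turn, the count ran from 2 to 17, with Ndufa4l2 and Ndufb8 called every time. With arrays aligned on the spike-in controls instead, 33 members were higher and 0 lower (background 20.1%).

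SCC against dysplasia fibroblasts gave 1 member higher and 1 lower, against a background of 1.85% (1.52% higher and 0.322% lower), and a median of -0.02 with 31 of 89 above 0. The 2 called were the isoforms Ndufa4l2 and Cox8b, and each call was lost when some single sample was left out. Every SCC sample lay above every dysplasia sample for 6 members and below for 15, where 13.5% and 11.7% of all probe sets did so. With the arrays aligned on the spike-in controls 9 members were called higher and 0 lower (background 23.2%).

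The isoform genes of complex IV had patterns of their own. Cox8b, the heart and skeletal muscle form of subunit VIII, read 6.36, 6.76 and 5.94 in normal, 8.28, 8.33 and 8.01 in dysplasia and 6.42, 7.05 and 7.23 in SCC fibroblasts. Dysplasia lay above both other groups without overlap, by 1.85 ± 0.26 over normal (3.61-fold, limma adjusted p = 0.0413), and SCC was lower than dysplasia by 1.30 (2.47-fold, adjusted p = 0.0432). The first of these calls was lost without the second dysplasia fibroblast sample (limma adjusted p = 0.199). The call of SCC against dysplasia was also lost when some single sample was left out. In the epithelia Cox8b read 3.75, 3.57 and 3.93 in normal, 4.86, 5.27 and 4.999 in dysplasia and 4.03, 6.50 and 3.89 in SCC, with a single high SCC sample and no call.

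Skeletal muscle markers were also highest in dysplasia among the fibroblast groups. Over 22 genes their mean was 7.31 (samples 7.22 to 7.47) in normal, 8.07 (7.86 to 8.18) in dysplasia and 7.54 (7.31 to 7.80) in SCC fibroblasts, with 1 of 22 called higher in dysplasia against normal and 3 lower and 1 higher in SCC against dysplasia. Muscle creatine kinase, Ckm, read 7.63, 7.96 and 7.16 in normal, 9.69, 9.72 and 8.74 in dysplasia and 7.62, 8.21 and 8.26 in SCC fibroblasts. The SCC epithelial sample with the high Cox8b was also the one with the highest muscle marker mean, at 7.52 against a lowest of 5.83 in that group. From normal to dysplasia epithelia, where Cox8b went from between 3.57 and 3.93 to between 4.86 and 5.27 without overlap, the muscle markers averaged 6.28 and 6.38, with 0 called higher and 1 lower. The part of muscle RNA in the Cox8b values was not tested. The common form Cox8a read 12.57, 12.57 and 12.45 in normal, 12.58, 12.63 and 12.68 in dysplasia and 12.44, 12.39 and 12.44 in SCC fibroblasts, with stage changes of 0.10 and -0.11 against normal that were not called.

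Ndufa4 and Ndufa4l2 encode alternative forms of one complex IV subunit, the second known to be induced by hypoxia-inducible factor. Ndufa4l2 read 7.94, 7.82 and 8.10 in normal, 8.004, 8.12 and 7.79 in dysplasia and 8.68, 8.70 and 9.04 in SCC fibroblasts. SCC lay above both other groups, by 0.85 ± 0.15 over normal (1.80-fold, limma adjusted p = 0.0119) and by 0.83 ± 0.15 over dysplasia (1.78-fold, adjusted p = 0.0341). The call over dysplasia was lost when some single sample was left out, and that over normal was kept each time. In the epithelia it read 9.06, 9.35 and 9.0001 in normal, 7.54, 8.68 and 8.49 in dysplasia and 9.28, 8.29 and 8.24 in SCC, a wide spread with changes of -0.90 and -0.54 that were not called.

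Ndufa4 itself read 13.07, 12.98 and 13.09 in normal, 12.75, 12.87 and 12.87 in dysplasia and 12.89, 12.80 and 12.72 in SCC epithelia. In the fibroblasts it read 11.94, 11.96 and 11.96 in normal, 12.37, 12.40 and 12.28 in dysplasia and 12.43, 12.48 and 12.10 in SCC. Lesion samples thus lay below normal in the epithelia and above normal in the fibroblasts, with no overlap in either, although none of the 4 changes (-0.22, -0.24, 0.40 and 0.39) was called on its own.

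The remaining isoforms gave less. Cox7a1, the muscle form of subunit VIIa, read 6.26, 6.41 and 6.44 in normal, 6.15, 5.92 and 6.22 in dysplasia and 6.07, 5.95 and 5.82 in SCC epithelia, and fell by 0.43 ± 0.12 in SCC (limma adjusted p = 0.0295). Cox6b2 read 8.40, 8.40 and 8.18 in normal and 7.33, 7.28 and 7.93 in SCC fibroblasts, and fell by 0.81 ± 0.23 (limma adjusted p = 0.0463). Cox4i2, the lung form of subunit IV, read between 5.78 and 7.67 over the 9 fibroblast samples with both values in normal fibroblasts, and was not called at any stage. The common forms Cox4i1, Cox6a1 and Cox6b1 were not called in any stage comparison.

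**Figure D4:**
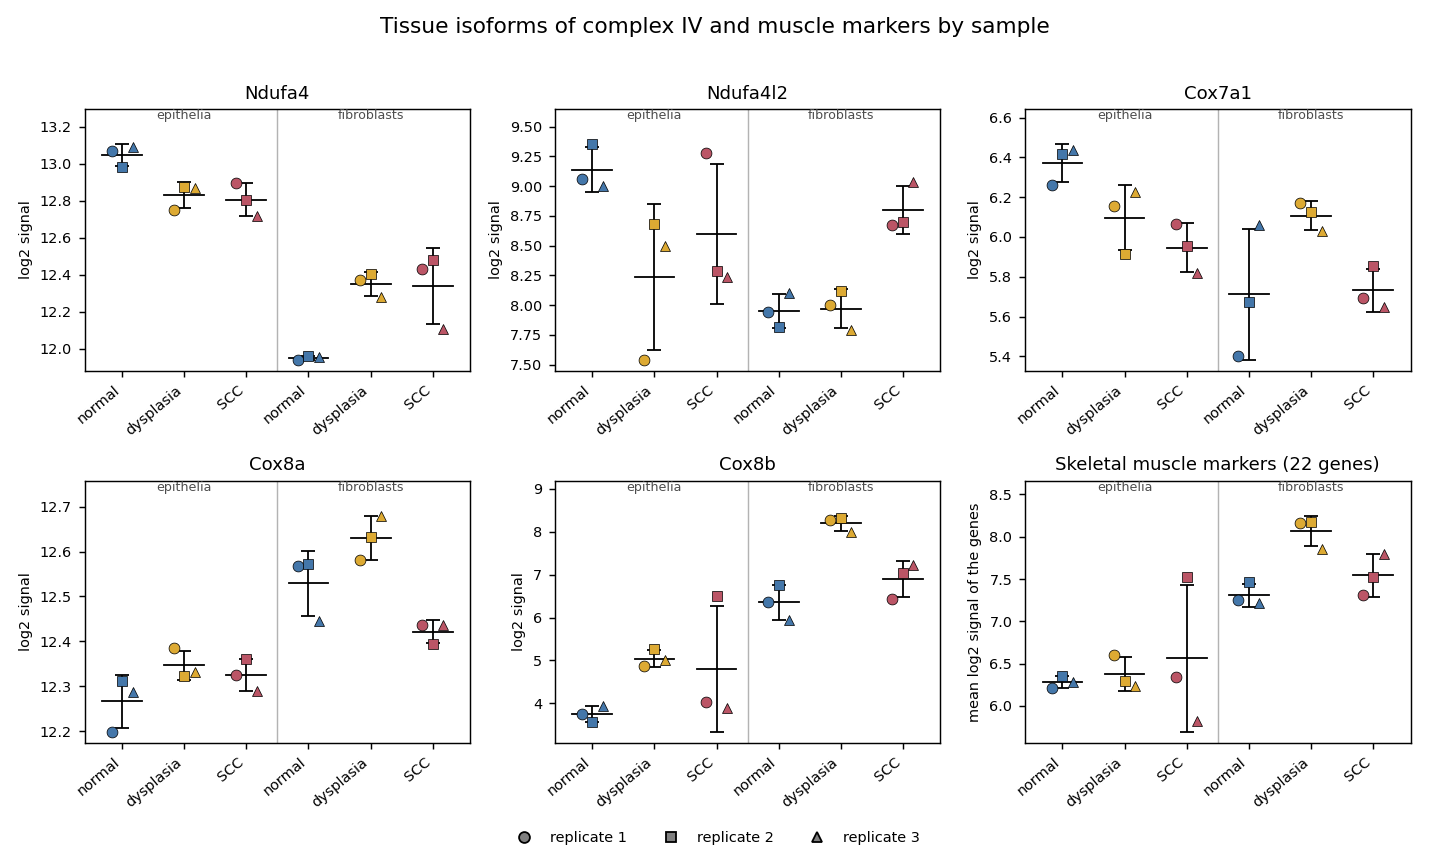
Log2 signal (vertical axis) of Ndufa4, Ndufa4l2, Cox7a1, Cox8a and Cox8b, and the mean of 22 skeletal muscle markers, in each sample by stage and cell type (horizontal axis), with bars for the group mean ± SD (n = 3). Cox8b and the muscle markers are both highest in dysplasia fibroblasts, and Ndufa4l2 is highest among fibroblasts in SCC, at 8.68 or above.

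Whether a stage changed the 2 layers differently was tested as the difference of the changes, epithelia minus fibroblasts, in a fit of all 18 samples. From normal to dysplasia 1 of 89 members passed, against 4.13% of all probe sets (1.93% higher and 2.2% lower): Ndufa4, at -0.62 ± 0.15 (limma adjusted p = 0.0363). The adjusted p was 0.0617 with quantile normalization and 0.675 with spike-in alignment, and leaving out 10 of the 18 samples, one at a time, ended the call, at up to 0.0894.

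From normal to SCC 5 of 89 passed (5.62%, against 16.5% of all probe sets, of which 7.12% higher and 9.39% lower). Sdhb was higher in the epithelial change by 0.83 ± 0.22 (limma adjusted p = 0.0179), its fibroblast values being 11.39, 11.33 and 11.37 in normal and 11.33, 11.39 and 11.69 in SCC. Ndufa4 (-0.63 ± 0.15, adjusted p = 0.0128) and Atp5f1d (-0.70 ± 0.18, adjusted p = 0.0175) were lower in the epithelial change. Atp5f1d read 11.61, 11.62 and 11.20 in normal and 11.89, 11.92 and 11.68 in SCC fibroblasts, so that it lay higher in SCC there and lower in SCC in the epithelia.

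Ndufa4l2 (-1.39 ± 0.40, limma adjusted p = 0.0286) and Uqcrfs1 (-0.42 ± 0.13, adjusted p = 0.039) were the other 2. Uqcrfs1, the Rieske iron-sulfur protein of complex III, read 12.05, 12.16 and 12.19 in normal and 12.08, 12.13 and 12.05 in SCC epithelia, and 11.54, 11.59 and 11.53 in normal and 11.95, 11.95 and 11.87 in SCC fibroblasts. Ndufa4 and Atp5f1d passed without each of the 18 samples in turn, and the other 3 did not: Sdhb was lost without the first SCC fibroblast sample (adjusted p = 0.0522) and with spike-in alignment (0.434). With spike-in alignment 9 members passed, all of them lower in the epithelial change (background 17.6%, median of all probe sets -0.53). In the deposited scaling each member that passed had the sign opposite to its layer difference in normal tissue. That layer difference is itself subtracted in the tested value, which favours opposite signs, so this is not read as a result. Fibroblast markers rose by a median of 2.94 in SCC epithelia, and epithelial markers by 0.62 in SCC fibroblasts (0 of 13 called). The part of RNA from the other layer was not tested. Dimmer probe sets of Uqcrc2 (-1.33, limma adjusted p = 0.00316), Atp5if1 (-1.26, 0.0121) and Ndufv3 (-0.96, 0.0265) passed where those used here did not.

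The layers themselves were compared at each stage. In normal tissue 34 members were higher and 13 lower in epithelia than in fibroblasts, 52.8% of the members against 63.4% of all probe sets (35.7% higher and 27.7% lower) and 69.9% of bright genes, with a median of 0.16 against 0.15. In dysplasia the counts were 17 and 10 (background 50.4%, or 27.4% higher and 23% lower, median 0.01 against 0.10), and in SCC 10 and 6 (background 38.3%, or 18.1% higher and 20.1% lower, median 0.11 against 0.06). In the deposited scaling members thus differed between layers no more often than probe sets in general. Samples did not overlap between layers, with epithelia above and below, for 41 and 21 members in normal tissue (39.4% and 29.9% of all probe sets), 26 and 21 in dysplasia (33.2% and 27%) and 32 and 11 in SCC (27.4% and 23.8%). By complex, medians in normal tissue were 0.25 for complex I, -0.28 for complex II, 0.34 for complex III, 0.17 for complex IV and 0.13 for complex V.

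The direction of these layer differences and the share of members called depend on the scaling. Alignment on the spike-in controls put the median difference of all probe sets at 0.94 in normal, 1.19 in dysplasia and 0.39 in SCC tissue, and then gave 76 members higher and 3 lower (background 77.7%), 85 and 1 (84.7%), and 20 and 3 (38.5%). The share of members called with this alignment was above the background in normal and dysplasia tissue and below it in SCC tissue. With quantile normalization the counts were 41 and 5 (64.8%), 20 and 6 (53.8%), and 24 and 3 (41%), each share below its background. Values below are relative to the deposited scaling, in which the median difference of all probe sets lay between 0.06 and 0.15.

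In complex II, 4 of 8 members were lower and 1 higher in normal epithelia (background 27.7% and 35.7%), 2 lower in dysplasia (23% called lower) and 3 lower in SCC (20.1%). The member that was higher was Sdhaf2, by 0.61 in normal tissue (limma adjusted p = 0.000819). Its dimmer probe set gave -0.09 there (adjusted p = 0.555). Sdhb differed most among the subunits, by -1.91 ± 0.15 in normal tissue (3.77-fold, limma adjusted p = 6.1e-08), -1.22 in dysplasia (adjusted p = 1.1e-05) and -1.09 in SCC (adjusted p = 6.25e-05). The epithelial samples of Sdhb, 9.12 to 10.53, all lay below its fibroblast samples, 11.33 to 11.69. Sdhaf1 differed by -2.05 ± 0.26 (4.13-fold, limma adjusted p = 7.45e-06), -1.45 and -1.49, and at each stage all its epithelial samples lay below all its fibroblast samples. Sdhd, a membrane anchor, read 11.10, 10.77 and 11.16 in normal epithelia and 11.73, 11.74 and 11.70 in normal fibroblasts, a difference of -0.71 ± 0.12 (limma adjusted p = 0.000117). With spike-in alignment the calls of Sdhd in normal tissue (adjusted p = 0.779) and of Sdhb (0.611) and Sdhaf1 (0.362) in dysplasia were lost.

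In complex III, 4 of 7 members were higher in the epithelia in normal tissue, 4 in dysplasia and 1 in SCC, and none was lower. Of all probe sets 35.7%, 27.4% and 18.1% were called higher, so the SCC count was not above the background. Uqcrfs1 was higher by 0.58 ± 0.09 in normal tissue (limma adjusted p = 5.58e-05), its normal epithelial samples lying at 12.05 or above and its normal fibroblast samples at 11.59 or below. Uqcr10, Uqcrc1 and Uqcrc2 were the others in normal tissue, at 0.47, 0.45 and 0.34.

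Complexes I, IV and V were mixed. Ndufb7 (1.10 ± 0.19, 2.15-fold, limma adjusted p = 0.000117), Ndufaf1 (1.21 ± 0.20, 2.31-fold, adjusted p = 9.09e-05) and Ndufa4 (1.10 ± 0.11, 2.14-fold, adjusted p = 5.31e-07) were higher in normal epithelia. Cox4i1, the common subunit IV, was lower in normal epithelia, at 12.08, 12.01 and 12.13 against 12.71, 12.73 and 12.60, a difference of -0.61 ± 0.09 (limma adjusted p = 2.78e-05) that was lost with spike-in alignment (0.432). In complex V, Atp5f1d and the inhibitor Atp5if1, which blocks ATP hydrolysis by the enzyme, were higher in normal epithelia by 0.91 ± 0.13 (limma adjusted p = 2.03e-05) and 0.76 ± 0.12 (adjusted p = 4.54e-05). The muscle form Cox8b was lower in the epithelia at all stages, with differences of -2.60, -3.16 and -2.09, and 12 of 22 muscle markers were called lower there in normal tissue.

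Other genes of mitochondrial function were read from lists. Their counts stand against 7% of all probe sets called higher and 7.54% lower in dysplasia epithelia, 12.6% and 17.3% in SCC epithelia, and 7.82% and 7.43% in SCC fibroblasts, each against normal. In the lists of 10 to 16 genes a count rests on few genes and is not read as a change of the list. Among 73 mitochondrial ribosomal proteins, which make the chain's mitochondrially encoded subunits, 23 rose in dysplasia and 35 in SCC epithelia and none fell (medians 0.31 and 0.35), and 34 rose in SCC fibroblasts (median 0.62). The median of all genes lay between -0.03 and 0.02 in the comparisons with normal. In dysplasia fibroblasts none of the 73 was called, at a median of 0.53. Of 24 assembly factors outside the symbol rule, 7 rose in dysplasia and 8 in SCC epithelia and none fell. Examples are the complex III factor Bcs1l (0.90 and 1.01) and the copper chaperone of complex IV Sco1 (0.85 and 1.11).

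Of 16 regulators of mitochondrial biogenesis 2 rose in dysplasia and 5 in SCC epithelia, including the mitochondrial transcription factor Tfam (0.65 and 0.69) and the helicase Twnk (0.59 and 0.66), and both rose in SCC fibroblasts (0.49 and 0.63). The citric acid cycle list had 1 of 12 higher in dysplasia and 3 higher and 1 lower in SCC epithelia, with medians of 0.18 and 0.07. Of 15 fatty acid oxidation genes 5 fell and 1 rose in SCC epithelia (median -0.30), the falls including medium-chain acyl-CoA dehydrogenase Acadm (-1.23) and Cpt2 (-0.87). In SCC fibroblasts 1 of the 15 rose and 1 fell.

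Of 15 glycolysis genes 4 rose and 2 fell in SCC epithelia (median 0.18) and 6 rose and 1 fell in SCC fibroblasts (median 0.34). The lactate exporter Slc16a3 (1.62 and 2.42) and the glucose transporter Slc2a1 (1.12 and 1.51) rose most. Of 10 mitochondrial antioxidant genes 5 rose and 1 fell in SCC epithelia (median 0.36), and 3 rose in SCC fibroblasts. The lists of pyruvate entry (12 genes), electron carriers and ubiquinone synthesis (14), and ADP and phosphate carriers with uncoupling proteins (11) had from 3 to 7 genes called in SCC epithelia, with medians of 0.09, -0.01 and 0.10.

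**Figure D5:**
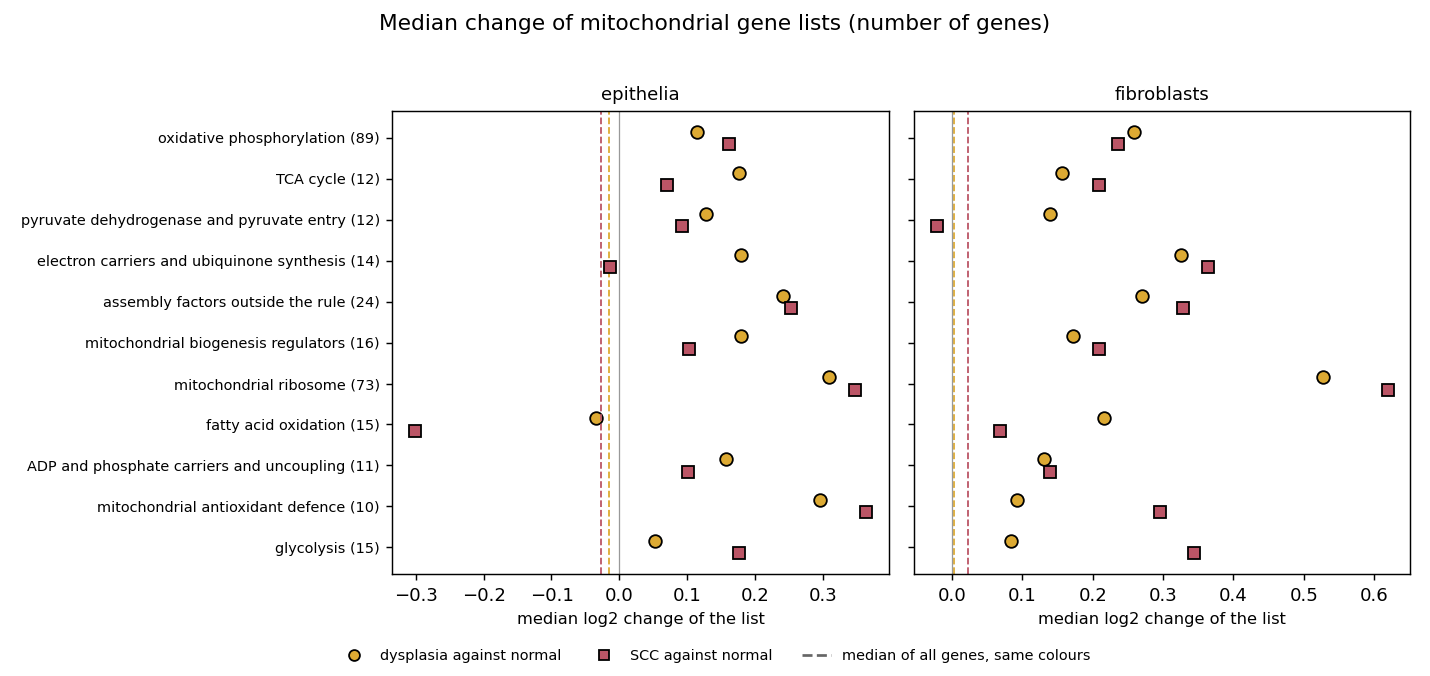
Median log2 change (horizontal axis) of the members and of 10 lists of mitochondrial and metabolic genes (vertical axis) in the stage comparisons, epithelia and fibroblasts, with a dashed line for the median of all genes. The mitochondrial ribosome lies farthest from that line in fibroblasts, at 0.53 in dysplasia and 0.62 in SCC, and the fatty acid oxidation list lies at -0.30 in SCC epithelia.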

How the data were processed

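Signal was measured on 18 arrays, 3 in each of 6 groups. The deposited values are intensities on a linear scale, 1 per probe set, which the authors summarized and normalized between arrays. RMA and Affymetrix Expression Console are the tools listed in the submitters' processing notes, with versions not given in the sources used here. How linear values were made from RMA output is not stated. The authors' own folds and p-values were not used. Probe sets were named from the platform annotation: of 31042 left after 57 controls were removed, 20826 had 1 gene symbol, 436 several and 9780 none. The number of arrays limits the precision, since array signals give no counts.

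From these, log2 values were taken with no floor and tested with limma 3.58.1 (lmFit, eBayes, two-sided) in R 4.3.3, with Benjamini-Hochberg adjustment over all 31042 probe sets. Stages were compared within each cell type (9 arrays), and cell types and differences of changes in 1 fit of all 18 arrays. The scripts were tested on simulated data. Members and lists were chosen with earlier results of these data known. The text names core subunits and isoforms whatever their values, and in each comparison and complex the called members of largest rise and fall, or every called member where 5 or fewer were called. Other genes named as examples were chosen after their values were seen. Motifs were matched as exact letters.

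Alternatives tried were quantile normalization, alignment on the 9 hybridization control probe sets, leaving out dim probe sets (mean log2 of 7 or below), a 1.5-fold minimum joined to an unadjusted p, trend and robust moderation, array weights, the methods' t-test for 2 groups, averaging a gene's probe sets, structural subunits alone, fewer or more samples in the fit, replicate numbers as a block, and leaving out single samples or the third fibroblast samples. Same-numbered samples deviated together (every correlation over 0.1) for dysplasia and SCC fibroblasts, at 0.32, 0.45 and 0.59, and in no other pair of groups compared. The labels give no source for this pairing.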

Additional observations from a re-analysis of the deposited data

Results flagged for a closer look

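The change from normal tissue differed between epithelia and fibroblasts, by limma's test of the difference itself in 1 fit of all 18 samples, for 6 results over 5 members. The values are log2 changes in epithelia minus those in fibroblasts. From normal to dysplasia it was -0.62 for Ndufa4. From normal to SCC it was -0.63 for Ndufa4, -0.70 for Atp5f1d, -1.39 for Ndufa4l2, -0.42 for Uqcrfs1 and 0.83 for Sdhb. Each value had the sign opposite to that of the member's layer difference in normal tissue. That layer difference is itself subtracted in the tested value, which favours opposite signs, so this is not read as a result. The part of RNA from the other layer was not tested. Both comparisons share the normal samples of each cell type, so the 2 Ndufa4 values are not independent.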

How the results depend on the processing

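Counts below are of members called, and those of the methods' t-test use Benjamini-Hochberg adjusted p-values. In the order dysplasia against normal, SCC against dysplasia and SCC against normal, leaving out 1 sample at a time gave 2 to 9, 0 to 0 and 9 to 18 in epithelia and 0 to 4, 0 to 2 and 2 to 17 in fibroblasts. For normal, dysplasia and SCC tissue, the counts of epithelia against fibroblasts ran from 42 to 49, 20 to 30 and 12 to 19, and the differences of changes from 0 to 6 (dysplasia) and 3 to 8 (SCC). Without the third fibroblast samples the counts were 36, 4 and 29 in fibroblasts and 7 and 11 for the differences of changes.

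For dysplasia against normal epithelia the count of 8 became 16 with trend and robust moderation, 21 with array weights, 13 in the methods' t-test and 4 over structural subunits alone. For SCC against dysplasia epithelia it became 1 with the fold criterion. For SCC against normal epithelia it became 33 with trend and robust moderation and 8 with the fold criterion. For dysplasia against normal fibroblasts it became 0 without dim probe sets and in the methods' t-test, 10 with other samples in the fit, 46 with array weights and 5 with the fold criterion. For SCC against dysplasia fibroblasts it became 9 with spike-in alignment, 1 without dim probe sets, 0 with other samples in the fit and in the methods' t-test, and 15 with array weights. For SCC against normal fibroblasts it became 33 with spike-in alignment, 19 without dim probe sets, 24 with other samples in the fit, 16 with trend and robust moderation, 49 with array weights, 2 in the methods' t-test and 5 over structural subunits alone. The estimate of the array weights stopped before it converged.

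Epithelia against fibroblasts gave 79 in normal and 86 in dysplasia tissue with spike-in alignment, 19, 8 and 6 with the fold criterion, and in SCC tissue 27 with quantile normalization, 7 with other samples in the fit and 10 in the methods' t-test. With spike-in alignment Ndufaf8 (0.39) and Atp5f1b (0.42) in normal tissue and Ndufb11 (0.67) in dysplasia tissue changed sign. The difference of changes to dysplasia gave 0 with quantile normalization and with spike-in alignment and 19 with array weights, and that to SCC gave 9 with spike-in alignment, without dim probe sets and with averaged probe sets, and 20 with array weights.

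With replicate numbers as a block the counts were 6, 0 and 15 in epithelia, 4, 2 and 19 in fibroblasts, and 0 and 2 for the differences of changes, where the block gave an adjusted p of 0.102 for Ndufa4 to dysplasia and of 0.0581 for Atp5f1d, 0.0659 for Ndufa4l2 and 0.13 for Uqcrfs1 to SCC. Apart from dysplasia and SCC fibroblasts the numbers were not shown to pair the samples.

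The median change of each complex is given here minus that of all probe sets. With quantile normalization it became 0.21 (complex V, dysplasia against normal epithelia), -0.0117 (complex III, SCC against dysplasia epithelia), 0.21 and 0.29 (complexes III and V, SCC against normal epithelia), 0.32, 0.25 and 0.39 (complexes III, IV and V, dysplasia against normal fibroblasts), 0.28 (complex V, SCC against normal fibroblasts) and 0.0447 (complex V, normal layers). Over structural subunits alone complex II gave -0.0625 (SCC against dysplasia epithelia), 0.0872 and 0.0377 (dysplasia and SCC against normal fibroblasts), and -0.31 and -0.34 (dysplasia and SCC layers). Without the third fibroblast samples, an alternative chosen for the medians after seeing the data, complexes I and III gave 0.0106 and 0.0767 in the normal layers. Leaving out single samples gave, for complex I, 0.17 to 0.25 (dysplasia against normal epithelia), 0.0175 to 0.1187 (SCC against dysplasia epithelia) and 0.0106 to 0.1357 (normal layers). Complex III gave 0.14 to 0.23, -0.0890 to 0.0044 and 0.0877 to 0.1833 in the epithelial comparisons, 0.11 to 0.24 in SCC against normal fibroblasts and 0.0767 to 0.2447 in the normal layers. Complex IV gave -0.1864 to 0.0305 in the normal layers, and complex V 0.14 to 0.23 (dysplasia against normal epithelia) and 0.0086 to 0.0895 (SCC against dysplasia epithelia). Complex II gave 0.1687 to 0.4047 in SCC against normal epithelia (lowest without the second normal sample) and 0.0302 to 0.196 in SCC against dysplasia epithelia (lowest without the first and highest without the third dysplasia sample), and complex IV 0.0466 to 0.1867 in SCC against normal fibroblasts (lowest without the first and highest without the third normal sample). Several small medians of SCC against dysplasia and of the layers also moved by over 1.5 times or changed sign and are not read as directions. The cause of these shifts was not tested. For named members called in the main setting, 945 values under single alternatives stayed on the same side of the threshold with the same sign, 175 lost the call and 3 changed sign.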
